A study of Homo sapiens with 6 samples.

Results

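The genes described here build and run the mitotic apparatus: the kinases of the spindle poles, the chromosomal passenger complex, the spindle checkpoint, the switch to anaphase, the centromere and kinetochore, the kinesin motors, the central spindle and cytokinesis machinery, the proteins of the spindle microtubules, and 2 proteins of mitotic chromosomes. They were chosen by symbol from a list sorted by function, with earlier results of these data known. All 50 listed symbols were found among the 20381 genes of the deposited table. Gene expression was measured by RNA-seq of poly(A) RNA in HCCLM3, a human hepatocellular carcinoma (HCC) cell line that expresses little *PON1*, the gene of the HDL-associated lactonase paraoxonase 1. Of the 6 libraries, 3 came from cells with stable *PON1* overexpression (PON1-OE), which carried the full-length *PON1* coding sequence in a lentiviral vector, and 3 from the negative control (NC), which the series text describes as carrying an empty lentiviral vector. The methods describe lines selected with puromycin and grown in RPMI-1640 with fetal bovine serum. The series text puts the serum at 15%, which differs from the share given in the methods. It puts the lysis 24 h after transfection, a time that differs from the stable lines of the sample labels. Neither the number of clones or infections nor the origin of the replicates is stated, so n counts libraries, and the p-values measure only the spread between these libraries, which may be technical.

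Mitosis moves duplicated chromosomes to opposite poles on a microtubule spindle. Kinetochores, built on the centromere, hold the microtubule ends, and unattached kinetochores keep the spindle checkpoint active, which blocks CDC20 and so the anaphase-promoting complex (APC/C). Once the block is lifted, securin and cyclin B are degraded, separase frees the sister chromatids, and the central spindle places the contractile ring that divides the cell. Most of these genes are transcribed late in the cell cycle and are silent in resting cells, so that in tumors their mRNA levels are widely read as a proliferation signature.

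*PON1* itself was counted 0, 2 and 3 times in the NC libraries and 155, 181 and 167 times in the PON1-OE libraries, which followed their labels (adjusted p = 2.99e-11, quasi-likelihood test of edgeR). The NC values did not exceed the floor of 3 counts, and no fold is given for that reason. The totals were 15706672 to 17948383 counts per library. The label "Hepatocyte" was matched by *HNF4A*, a hepatocyte transcription factor, at 72.5 to 82.5 CPM (counts scaled to the size of the library), and by the keratins *KRT8* and *KRT18*, while the mature hepatocyte genes *ALB*, *APOA1*, *TTR* and *SERPINA1* were at no more than 0.762 CPM in any library. *APOB*, another gene of mature hepatocytes, had 3.75 to 6.24 CPM, the fetal liver gene *AFP* up to 1.10 CPM and *EPCAM* up to 0.500 CPM. Of the leukocyte markers, *PTPRC*, *CD3E*, *MS4A1* and *LYZ* had no count in any library, and *CD68*, a lysosomal glycoprotein, had 206 to 248 CPM. *PECAM1* was the highest of the fibroblast and endothelial markers, with 12.6 to 15.9 CPM.

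All 50 genes passed the filter on low counts, as did 11958 genes in all. None of the 50 had an adjusted p under 0.05 when PON1-OE was compared with NC by the quasi-likelihood test of edgeR, with or without a fold change of over 1.5, and limma-voom also called 0. DESeq2 called 0 of the 32 genes for which it gave an adjusted p, and gave none for the other 18. Over all genes tested, 0.677% had an adjusted p under 0.05 (0.502% higher and 0.176% lower in PON1-OE), and 0.0502% also passed the fold threshold. The smallest adjusted p among the 50 genes was 0.149, for *PLK1*, and it was 0.0940 with DESeq2 and 0.159 with limma-voom. The log2 fold changes (log2FC, PON1-OE minus NC) ran from -0.28 for *HMMR* to 0.23 for *PLK1*. The 95% intervals of all 50 genes, each for its gene alone, lay between -0.57 and 0.53, inside the limits of a 1.5-fold change in either direction, and their median half-width was 0.15.

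Small differences leaned to higher levels in PON1-OE. An unadjusted p under 0.05 was reached by 6 genes that were higher in PON1-OE, 12% of the 50 against 5.91% of all genes tested, and by 0 genes that were lower, against 5.17% of all genes (11.1% in either direction). DESeq2 and limma-voom gave the same 6 genes, *PLK1*, *CDC20*, *UBE2C*, *KIF4A*, *CIT* and *TPX2*, and 0 lower. In 9 genes, 18%, all PON1-OE libraries lay above all NC libraries, against 8.32% of all genes, and in 0 genes they all lay below, against 7.74%. A log2FC above 0 was found for 35 of the 50 genes and below 0 for 15, while 49% of all genes tested lay above 0. The median log2FC was 0.06 for the 50 genes and -0.0025 for all genes tested. All 50 genes were measured in the same 6 libraries, 3 per group, so these counts of genes are not independent observations. In a bulk library, a different share of cells in mitosis and a different level of these mRNAs per cell cannot be told apart.

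**Figure D1:**
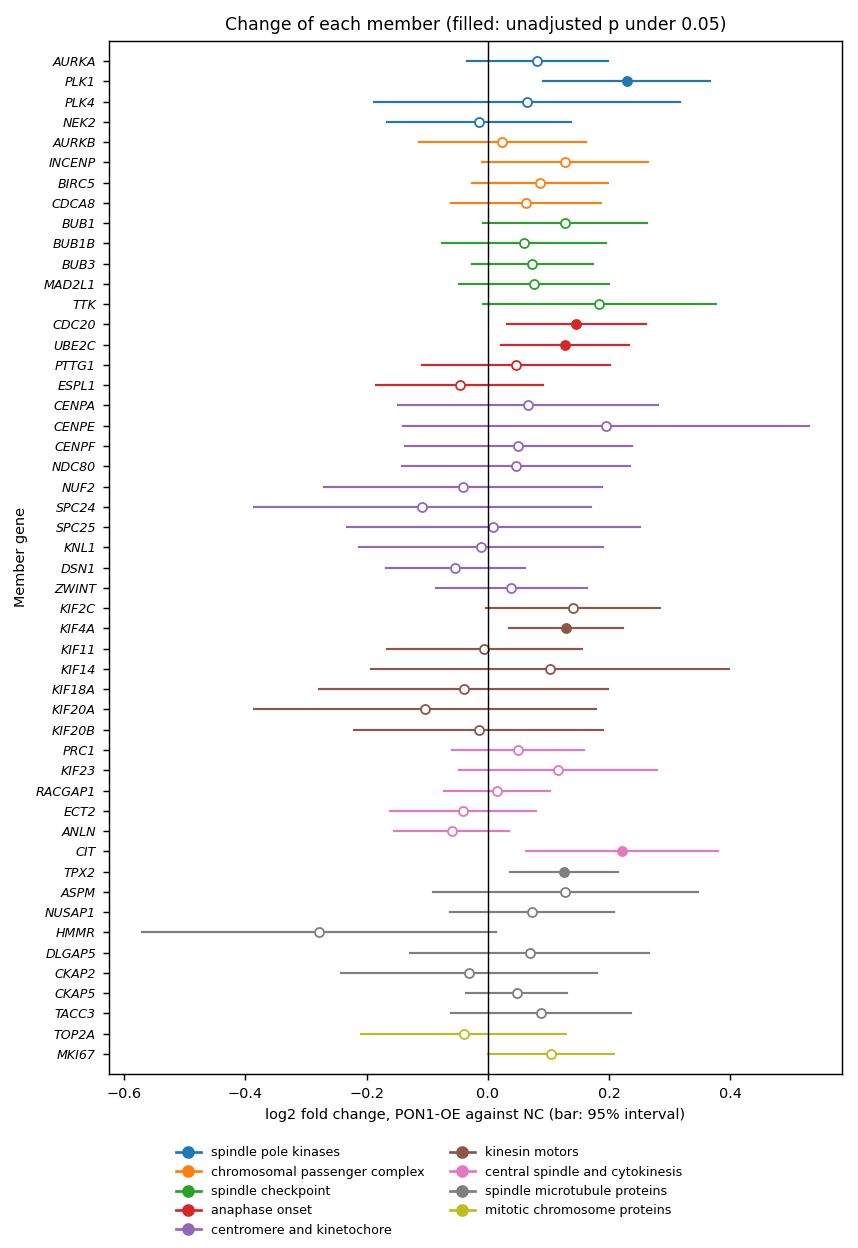
Each point is the log2FC of one gene (PON1-OE against NC, n = 3 libraries each, horizontal axis), with its 95% interval as a bar, and the colors give the functional groups. The 6 filled points with an unadjusted p under 0.05 all lie right of 0, and no interval reaches beyond -0.57 or 0.53.

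The 6 libraries differed in the level of the whole group. The 50 genes together took 0.312%, 0.292% and 0.306% of all counts in the NC libraries, and 0.330%, 0.302% and 0.311% in the PON1-OE libraries, each in the order of replicates 1 to 3. These shares overlapped between the groups, with NC replicate 2 at the bottom and PON1-OE replicate 1 at the top. NC replicate 2 held the lowest of the 6 values for 22 of the 50 genes, PON1-OE replicate 2 for 17, and PON1-OE replicate 1 the highest for 27. The same counts were not made over all genes tested, so they do not set the 50 genes apart from other genes in these libraries. Without NC replicate 2, 31 genes had a log2FC above 0 and 3 had an unadjusted p under 0.05 as higher genes (*CDC20*, *CIT* and *PLK1*), 6% of the 50 against 5.86% of all genes in that fit. Without PON1-OE replicate 1, 29 genes lay above 0 and the median log2FC was 0.030. In that fit 6 genes (12%) were higher at an unadjusted p under 0.05, against 5.78% of all genes. *HMMR* and *TOP2A* were lower at that threshold, as were 4.87% of all genes. Without PON1-OE replicate 2, 42 genes lay above 0 and the median was 0.085. In that fit 13 genes (26%) were higher at an unadjusted p under 0.05, against 6.79% of all genes. What set these libraries apart was not tested.

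**Figure D2:**
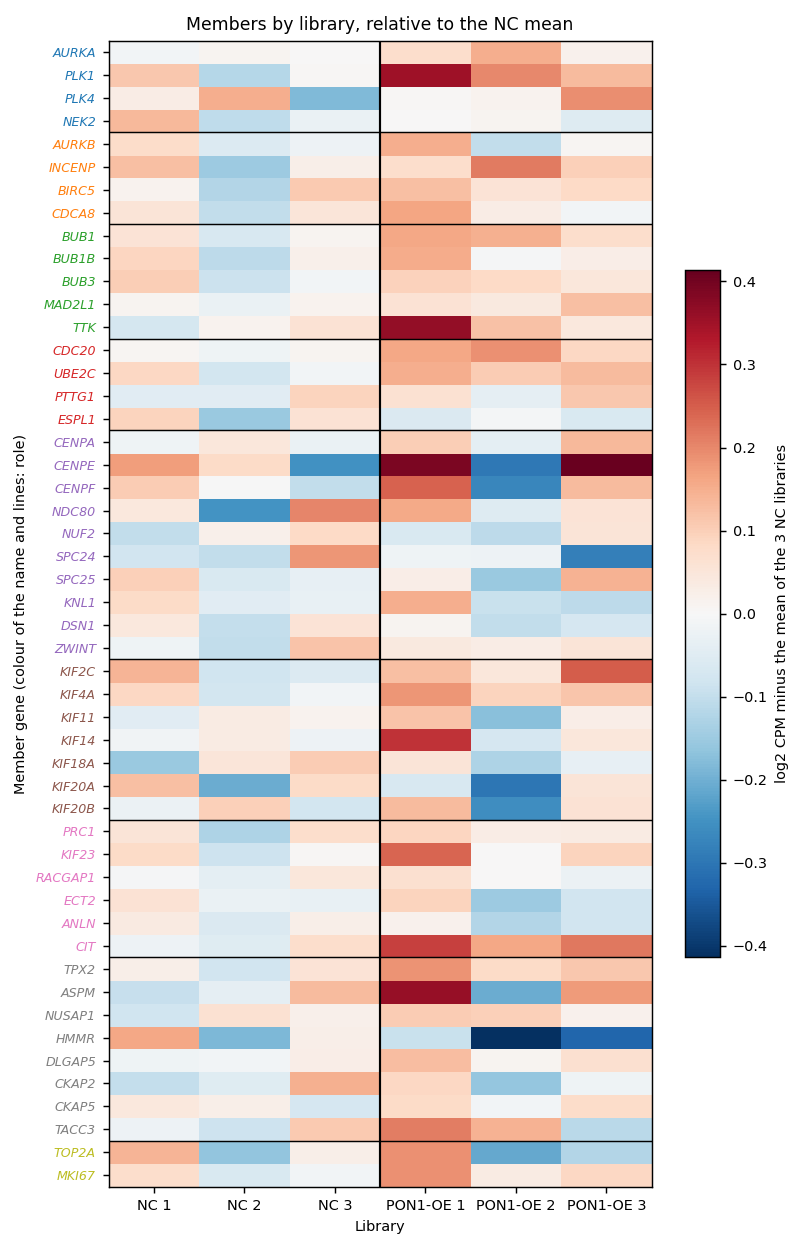
Each cell shows log2 CPM of one gene (row) in one library (column) minus the mean of the 3 NC libraries, red for higher and blue for lower, with horizontal lines between the functional groups. PON1-OE replicate 1 is the reddest column, with the highest value for 27 genes. The darkest blue cell is *HMMR* in PON1-OE replicate 2 (-0.41), followed by *HMMR* in PON1-OE replicate 3 (-0.33). *KIF20A*, *CENPE* and *CENPF* in PON1-OE replicate 2 lie between -0.30 and -0.27, and *SPC24* in PON1-OE replicate 3 is at -0.28.

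Many promoters of these genes carry a cell cycle genes homology region (CHR), which MuvB protein complexes bind to repress the gene in resting cells and to activate it in G2 and mitosis, often beside CCAAT boxes bound by NF-Y. RefSeq promoters (GRCh38.p14), from 250 bases before to 50 bases after each start, were at hand for 42 of the 50 genes with 48 entries, and not for *AURKA*, *BIRC5*, *BUB3*, *TTK*, *UBE2C*, *KNL1*, *RACGAP1* and *TPX2*. A CHR (TTTGAA or TTCGAA, either strand) was found in 70.8% of these 48 entries and in 16.4% of all 35116 promoters, and a CCAAT box (CCAAT or, on the other strand, ATTGG) in 75% and 34.6%. Both motifs were present in 58.3% of the entries and in 6.38% of all promoters. The CHR matches had a median position of -23 from the start (-125 over all promoters), and the CCAAT matches of -75 (-96 over all promoters). Over 99 other mitotic genes with 123 entries, the shares were 36.6% for the CHR, 47.2% for the CCAAT box and 18.7% for both. A match is a run of letters and not a measured binding site, and a CCAAT box that overlaps its own reverse, as in *HMMR*, was counted on both strands.

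The promoters of genes with an unadjusted p under 0.05 and of *HMMR*, the gene with the lowest log2FC, are shown to place these motifs. Capitals mark CHR and CCAAT matches, and all sequences are given 5′ to 3′ on the gene's strand. For *CDC20* (chr1:43358831-43358980, + strand), *KIF4A* (chrX:70289954-70290103, + strand) and *CIT* (chr12:119877321-119877470, − strand) the 150 bases before the start are given.
CDC20: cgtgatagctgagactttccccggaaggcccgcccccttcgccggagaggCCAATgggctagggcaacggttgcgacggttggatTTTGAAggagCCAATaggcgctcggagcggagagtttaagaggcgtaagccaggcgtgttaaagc
KIF4A: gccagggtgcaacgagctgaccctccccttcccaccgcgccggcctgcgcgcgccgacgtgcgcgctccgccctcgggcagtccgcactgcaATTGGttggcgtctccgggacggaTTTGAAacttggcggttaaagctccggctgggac
CIT: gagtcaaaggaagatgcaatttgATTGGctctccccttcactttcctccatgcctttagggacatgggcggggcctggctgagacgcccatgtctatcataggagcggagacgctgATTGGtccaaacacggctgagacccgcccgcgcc
For *PLK1* and *HMMR*, whose annotated exons cover all 150 bases of this stretch (26 in *CDC20*, 14 in *KIF4A* and 0 in *CIT*), only 30 bases around a match are given: *PLK1* CCAAT box (chr16:23678803-23678832, + strand) and CHR (chr16:23678848-23678877, + strand), and *HMMR* CCAAT boxes (chr5:163460550-163460579, + strand) and CHR pair (chr5:163460592-163460621, + strand).
PLK1 CCAAT: taaatccccgcggCCAATcagtggcgcgca
PLK1 CHR: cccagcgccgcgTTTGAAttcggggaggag
HMMR CCAAT: ggggtttggctttCCAATTGGctaacgccg
HMMR CHR: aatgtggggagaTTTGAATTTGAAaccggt
The window of *CIT* held 2 CCAAT boxes and no CHR, and its CHR matches lay at -208 and 11. Other matches not shown were *HMMR* CCAAT boxes at -177, -144 and -95, a *CDC20* CHR at -178 and a *CIT* CCAAT box at -213. *HMMR* carried both motifs as *PLK1* and *CDC20* did, and its log2FC had the other sign. The 32 genes with a CHR had a median log2FC of 0.061 with 23 above 0, and the 10 without one a median of 0.0046 with 5 above 0. The difference between the sets was not tested.

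**Figure D3:**
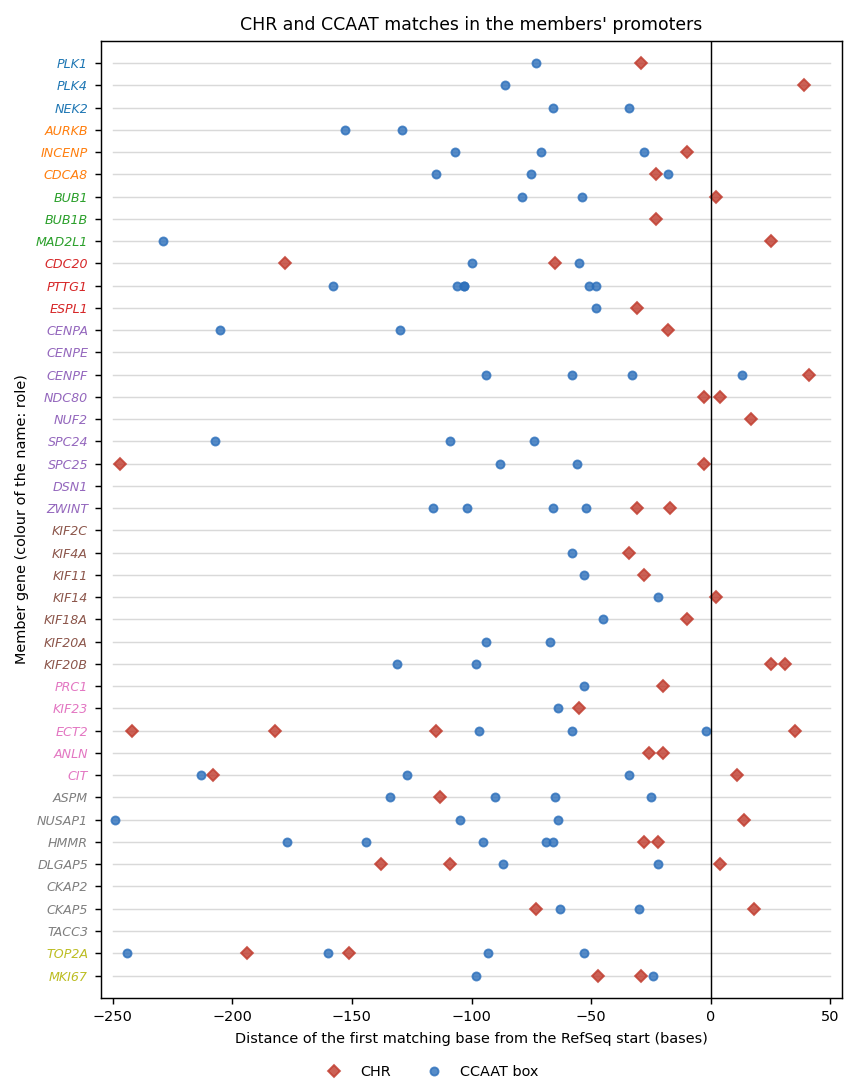
Positions of CHR matches (red diamonds) and CCAAT boxes (blue circles) in the RefSeq promoters of 42 genes (rows, colored by function), with the distance of the first matching base from the start in bases on the horizontal axis. Most CHR matches lie close to the start, with a median of -23, and the CCAAT boxes lie farther upstream, with a median of -75.

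The spindle pole kinases comprised *PLK1*, *AURKA*, *PLK4* and *NEK2*, of which 3 had a log2FC above 0 (median 0.073) and 1 an unadjusted p under 0.05. *PLK1* (ENSG00000166851, chr16:23677656-23690367, + strand) encodes polo-like kinase 1, which drives mitotic entry, centrosome maturation and kinetochore attachment. *PLK1* had 64.6, 55.1 and 60.0 CPM in the NC libraries and 76.3, 68.5 and 65.4 CPM in the PON1-OE libraries, in the order of replicates 1 to 3 as in all values that follow. The groups did not overlap, but the lowest PON1-OE value was close to the highest NC value. Its log2FC was 0.23 ± 0.066 (SE, n = 3 per group), the highest of the 50 genes, with an adjusted p of 0.149 in edgeR's test. When no filter on low counts was used, its adjusted p was 0.0297 at the same log2FC, and over all 14 alternatives it lay between 0.0297 and 0.397. *AURKA*, the kinase that TPX2 activates at the poles, had 57.0 to 57.9 CPM in NC and 58.2 to 63.9 CPM in PON1-OE, without overlap, at a log2FC of 0.08 (adjusted p = 0.643, edgeR). *PLK4*, which starts centriole duplication, and *NEK2*, which separates centrosomes, overlapped between the groups, with log2FC of 0.06 and -0.01.

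The chromosomal passenger complex corrects faulty attachments and acts again in cytokinesis. Its 4 subunits had log2FC above 0 (median 0.074), and none had an unadjusted p under 0.05 or separate groups. *INCENP*, the scaffold, differed most, with 65.2, 53.8 and 60.8 CPM in NC and 62.8, 69.4 and 64.0 CPM in PON1-OE (log2FC = 0.13 ± 0.066, adjusted p = 0.496, edgeR). NC replicate 1 exceeded 2 of the PON1-OE libraries. *BIRC5*, which encodes survivin, *CDCA8*, which encodes borealin, and the kinase gene *AURKB* had log2FC of 0.09, 0.06 and 0.02. Per exon length, the NC means of *AURKB*, *BIRC5* and *CDCA8* lay between 24.1 and 28.2 RPKM, the CPM divided by the exon length in kilobases, and that of *INCENP* was 13.4 RPKM. With the longest transcript in place of all exons, the means over all libraries lay farther apart, at 43.5 RPKM for *AURKB*, 37.1 for *BIRC5*, 28.8 for *CDCA8* and 15.8 for *INCENP*.

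All 5 spindle checkpoint genes had log2FC above 0 (median 0.076), and *BUB1* and *MAD2L1* had all PON1-OE values above all NC values. *BUB1*, a kinase that recruits other checkpoint proteins to kinetochores, had 39.7, 36.5 and 38.5 CPM in NC and 42.7, 42.3 and 40.2 CPM in PON1-OE (log2FC = 0.13 ± 0.065, adjusted p = 0.489, edgeR). *MAD2L1* encodes MAD2, which sequesters CDC20. It had 46.9, 45.7 and 47.0 CPM in NC and 48.5, 47.9 and 50.8 CPM in PON1-OE, a log2FC of only 0.08 (adjusted p = 0.694, edgeR). The largest log2FC of the checkpoint genes was that of *TTK*, the kinase MPS1 that starts checkpoint signaling, at 0.18 ± 0.092 (adjusted p = 0.475, edgeR). Its 18.1, 19.2 and 19.9 CPM in NC overlapped with 24.5, 20.8 and 19.7 CPM in PON1-OE, where replicate 1 stood above the others. *BUB1B*, which encodes BUBR1, and *BUB3*, its partner, had log2FC of 0.06 and 0.07.

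The genes of anaphase onset held 2 of the 6 genes with an unadjusted p under 0.05. *CDC20* (ENSG00000117399, chr1:43358955-43363203, + strand), the activator of the APC/C that the checkpoint blocks, had 55.8, 54.9 and 55.9 CPM in NC and 62.0, 63.3 and 59.0 CPM in PON1-OE. The NC values lay close together, and every PON1-OE value was above them. Its log2FC was 0.15 ± 0.055 (adjusted p = 0.302, edgeR), and its unadjusted p stayed under 0.05 in all 14 alternatives. *UBE2C* (ENSG00000175063, chr20:45812576-45816957, + strand), the ubiquitin-conjugating enzyme that works with the APC/C, had 91.6, 81.9 and 85.7 CPM in NC and 95.7, 92.8 and 94.4 CPM in PON1-OE. The 3 PON1-OE values were close together and above NC replicate 1, the highest of the controls. Its log2FC was 0.13 ± 0.051 (adjusted p = 0.344, edgeR), with an unadjusted p under 0.05 in 11 of 14 alternatives. Downstream of them, *PTTG1*, which encodes securin, had a log2FC of 0.05 and *ESPL1*, which encodes separase, one of -0.05, both with overlapping groups.

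The 10 centromere and kinetochore genes had adjusted p of 0.717 or more in edgeR's test, and their groups overlapped without exception. *CENPE*, a kinesin that carries chromosomes to the spindle equator, had the largest log2FC of these, 0.19 ± 0.16 (edgeR). Its values were 9.57, 8.96 and 7.10 CPM in NC and 11.1, 6.88 and 11.3 CPM in PON1-OE, so that the lowest of all 6 libraries was a PON1-OE library. *CENPF*, a large protein of the outer kinetochore, showed the same split, with 67.1 and 62.0 CPM in PON1-OE replicates 1 and 3 and 47.0 CPM in replicate 2, against 52.8 to 60.9 CPM in NC. *CENPA*, the histone H3 variant that marks centromeres, had a log2FC of 0.07. The 4 genes of the NDC80 complex, which grips microtubule ends, had log2FC of 0.05 (*NDC80*), -0.04 (*NUF2*), -0.11 (*SPC24*) and 0.01 (*SPC25*). Although the proteins assemble in equal numbers, the NC levels per exon length were 10.1 RPKM for *NDC80*, 5.69 for *SPC25*, 3.30 for *NUF2* and 2.92 for *SPC24*, and the last 2 did not differ beyond their SDs of 0.216 and 0.333. With the longest transcript in place of all exons the order was the same, and the last 2 had means over all libraries of 5.55 and 3.45 RPKM. *KNL1*, the checkpoint platform of the outer kinetochore, *DSN1* of the MIS12 complex and *ZWINT*, a partner of KNL1, had log2FC of -0.01, -0.05 and 0.04.

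Of the 7 kinesin motors, 3 had log2FC above 0 and 4 below (median -0.0056). *KIF4A* (ENSG00000090889, chrX:70290090-70420832, + strand), a chromokinesin that also limits the length of the central spindle, had 182, 163 and 170 CPM in NC and 195, 183 and 186 CPM in PON1-OE. All PON1-OE values lay above the NC values, PON1-OE replicate 2 only just so. Its log2FC was 0.13 ± 0.045 (adjusted p = 0.252, edgeR). *KIF4A* shares exonic bases with *PDZD11* on the other strand, which had the same log2FC of 0.13 (adjusted p = 0.372, edgeR). Use of the strand in counting is not stated. *KIF2C*, the microtubule depolymerase MCAK, had 55.5, 47.4 and 48.3 CPM in NC and 54.9, 51.9 and 59.8 CPM in PON1-OE, which overlapped (log2FC = 0.14 ± 0.069, adjusted p = 0.462, edgeR). *KIF11*, the motor that pushes the poles apart, had a log2FC of -0.0056 ± 0.077, and *KIF18A*, *KIF20A* and *KIF20B* lay between -0.10 and -0.02. *KIF14*, a cytokinesis motor, had the lowest level per exon length of all 50 genes, 0.875 ± 0.019 RPKM in NC and 0.939 ± 0.127 RPKM in PON1-OE (SD, n = 3 each). It did not differ beyond the SDs from *CENPE*, the next lowest, with 0.904 ± 0.136 RPKM in NC and 1.03 ± 0.266 RPKM in PON1-OE.

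In the central spindle and cytokinesis genes, *CIT* stood apart from 5 others with log2FC between -0.06 and 0.12. *CIT* (ENSG00000122966, chr12:119685790-119877291, − strand), the citron kinase of the midbody, had 23.3, 22.8 and 24.8 CPM in NC and 28.7, 26.4 and 27.5 CPM in PON1-OE. Each group spanned less than the gap between their means. Its log2FC was 0.22 ± 0.076 (adjusted p = 0.244, edgeR), with an unadjusted p under 0.05 in all 14 alternatives. *KIF23* and *RACGAP1*, the pair that forms centralspindlin, had log2FC of 0.12 and 0.01, and their NC levels per exon length were 4.27 and 38.3 RPKM. *PRC1*, which bundles antiparallel microtubules, *ECT2*, the activator of RhoA at the division plane, and *ANLN*, which encodes anillin of the contractile ring, had log2FC of 0.05, -0.04 and -0.06, with overlapping groups.

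The 8 proteins of the spindle microtubules held both a gene with an unadjusted p under 0.05 and the gene with the lowest log2FC. *TPX2* (ENSG00000088325, chr20:31739271-31801805, + strand), the spindle assembly factor that activates aurora A, had 217, 201 and 221 CPM in NC and 242, 225 and 230 CPM in PON1-OE. The lowest PON1-OE value was above the highest NC value. Its log2FC was 0.13 ± 0.043 (adjusted p = 0.242, edgeR). *HMMR* (ENSG00000072571, chr5:163460203-163491945, + strand), a hyaluronan receptor that also acts at spindle poles, had 9.08, 7.13 and 8.27 CPM in NC and 7.61, 6.07 and 6.45 CPM in PON1-OE. PON1-OE replicate 1 lay above NC replicate 2, so the groups overlapped, and the log2FC was -0.28 ± 0.14 (adjusted p = 0.474, edgeR). Without NC replicate 2 or without PON1-OE replicate 1, its unadjusted p was under 0.05. *ASPM*, which focuses the poles, had 34.9, 23.6 and 30.7 CPM in PON1-OE against 25.4 to 29.8 CPM in NC. *NUSAP1*, *DLGAP5*, *CKAP5* and *TACC3*, which stabilize or bundle spindle microtubules, had log2FC between 0.05 and 0.09, and *CKAP2* one of -0.03.

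*MKI67*, which encodes the proliferation marker Ki-67, a coat of mitotic chromosomes, had 120, 109 and 113 CPM in NC and 130, 117 and 121 CPM in PON1-OE. PON1-OE replicate 2 lay below NC replicate 1. The log2FC was 0.10 ± 0.050 (adjusted p = 0.451, edgeR). *TOP2A*, the topoisomerase that disentangles sister chromatids, had a log2FC of -0.04, with the highest value of 104 CPM and the lowest of 78.6 CPM both in PON1-OE.

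Levels per exon length spanned almost 2 orders of magnitude, from *KIF14* to *UBE2C* with 67.2 ± 3.78 RPKM in NC and 73.3 ± 1.13 RPKM in PON1-OE. *TPX2* came next with 59.1 RPKM in NC, beyond the SDs from *UBE2C*, followed by *RACGAP1* with 38.3 and *KIF4A* with 37.9 RPKM, which did not differ beyond their SDs. The median over the 50 genes was 10.1 RPKM. The exon length used is the union of all annotated exons, and with the longest transcript in its place the median was 14.9 RPKM. The order below *TPX2* also depended on this choice. Per longest transcript, the means over all libraries were 53.4 RPKM for *RACGAP1*, 43.6 for *CKAP5*, 43.5 for *AURKB* and 41.3 for *KIF4A*.

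**Figure D4:**
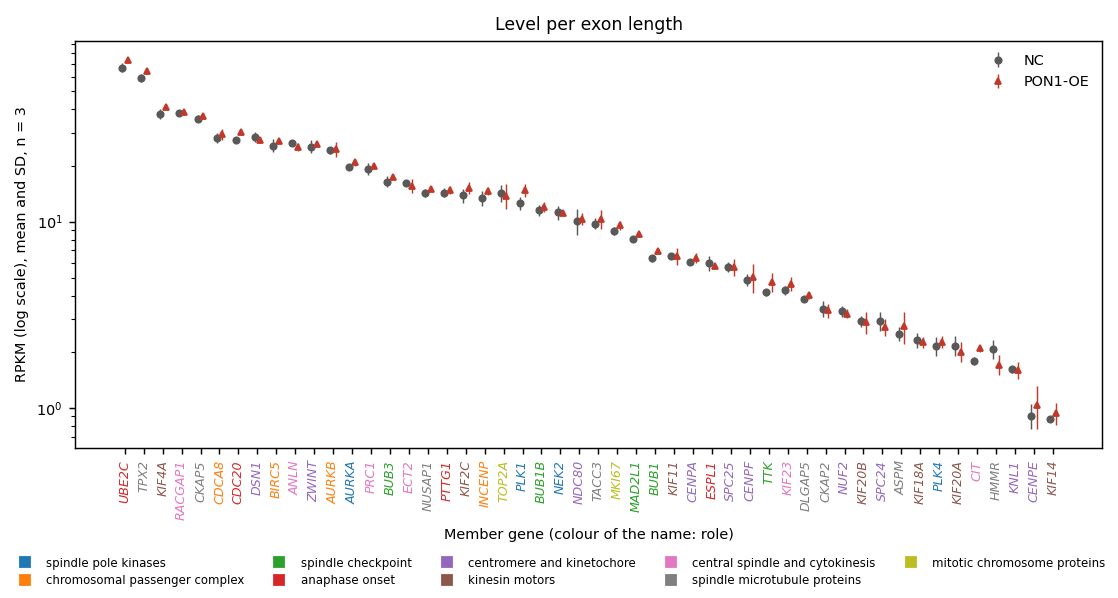
Mean level per exon length (RPKM, log scale) of each gene in NC (gray circles) and PON1-OE (red triangles), with the SD over n = 3 libraries, ordered by level and with names colored by function. In both groups the order runs from *UBE2C* (67.2 RPKM in NC) to *KIF14* (0.875 RPKM in NC).

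PON1-OE replicate 2 differed from the other PON1-OE libraries in a way that followed the base composition of the transcripts. Across the 50 genes, log2 CPM in PON1-OE replicate 2 minus the mean of replicates 1 and 3 was higher at higher GC content (Spearman's rho = 0.61, n = 50 genes, which share the same libraries), and over 11891 genes rho was 0.35. The 29 genes with GC below 45%, a limit chosen after the values were seen, had a median difference of -0.11. The other 21 genes had one of -0.044, while all genes tested had -0.073 and 0.036. In NC replicate 2 the level fell with GC content. Against the 6-library mean, its median log2 CPM over the 50 genes was -0.044 below 45% GC and -0.13 at or above it. Over all genes tested these values were 0.032 and -0.015. In PON1-OE replicate 2 they were -0.083 and 0.015 for the 50 genes, and -0.056 and 0.028 for all genes. All 6 genes with an unadjusted p under 0.05 were among the 21 with more GC (28.6%), and 0 among the 29 with less. Over all genes tested, 7.29% were higher at an unadjusted p under 0.05 at or above this limit and 3.69% below it. The log2FC itself had a rho with GC content of 0.30 over the 50 genes and 0.09 over all genes. *CENPE*, at 35.3% GC, lay lowest with -0.70. When GC content and length were taken out with a spline offset, 10 genes (20%) had an unadjusted p under 0.05 as higher genes, against 6.52% of all genes in that fit, 38 had a log2FC above 0, and the smallest adjusted p was 0.102 in edgeR's test. The part of base composition in the differences between the groups was not tested beyond this.

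**Figure D5:**
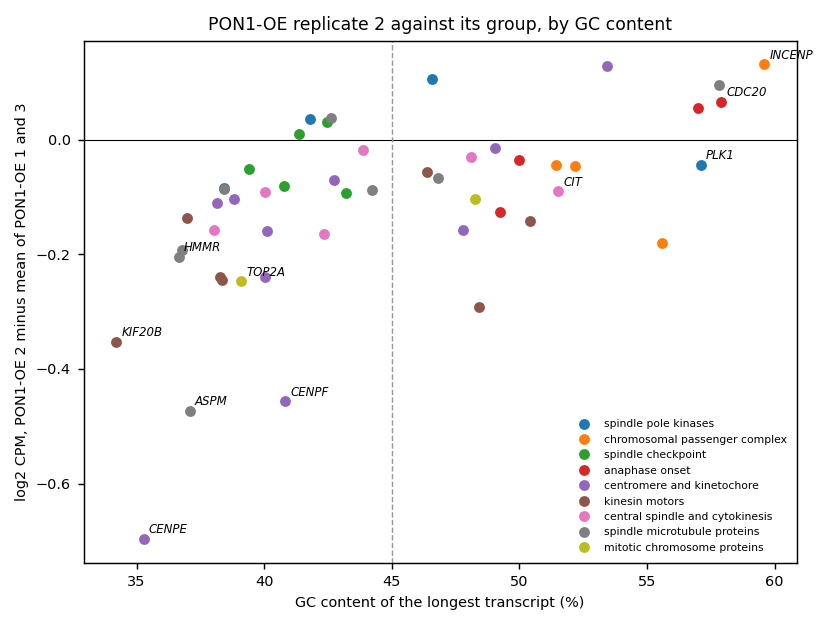
Difference in log2 CPM between PON1-OE replicate 2 and the mean of PON1-OE replicates 1 and 3 (vertical axis) against the GC content of the longest transcript in percent (horizontal axis), 1 point per gene, colored by function, with a dashed line at 45%. Points rise from *CENPE* at -0.70 to *INCENP*, with rho = 0.61 over 50 genes.

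Another 99 mitotic genes were listed by function. None had an adjusted p under 0.05 in edgeR's test, 9 were higher (9.09% against 5.91% of all genes) and 1 lower (1.01% against 5.17%) at an unadjusted p under 0.05. Their median log2FC was 0.031, with 61 above 0, and the difference from the 50 genes was not tested. In each list the gene with the smallest p is named. *CCNB2*, which encodes cyclin B2, led the 21 genes of mitotic entry and its transcription with 27.1, 24.8 and 23.9 CPM in NC and 29.1, 29.6 and 33.0 CPM in PON1-OE, without overlap (log2FC = 0.28 ± 0.078, adjusted p = 0.145, edgeR). *FOXM1* and *MYBL2*, transcription factors that work with MuvB on CHR promoters and were named for that role after their values were seen, had log2FC of -0.01 (95% interval -0.10 to 0.080) and 0.0004 (-0.085 to 0.086). *UBE2S*, which extends ubiquitin chains on APC/C targets, led the 16 APC/C genes with 267, 249 and 252 CPM in NC and 281, 287 and 274 CPM in PON1-OE (log2FC = 0.13 ± 0.039, adjusted p = 0.154, edgeR). Of 32 other centromere and kinetochore genes, 22 lay above 0, led by *HJURP*, the chaperone of CENP-A (log2FC = 0.24 ± 0.076, adjusted p = 0.190, edgeR). Of 22 other spindle and midbody genes, 12 lay above 0, and *NDE1*, a dynein regulator, had the smallest p (log2FC = 0.13, adjusted p = 0.344, edgeR). The 8 condensin subunits had a median log2FC of -0.045, with 5 below 0, and the smallest p was that of *SMC2* (log2FC = -0.12 ± 0.080, adjusted p = 0.618, edgeR). The 1 gene that was lower at an unadjusted p under 0.05 was *SKA2* of the SKA complex, named after its value was seen (log2FC = -0.17, adjusted p = 0.448, edgeR), and its groups overlapped.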

How the data were processed

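RNA-seq of 3 NC and 3 PON1-OE libraries was analyzed. The authors deposited estimated counts per gene, not normalized, of which 10.5% were not whole. The submitters' processing notes name Bowtie2 2.2.8, HISAT2, StringTie 1.3.1 and DESeq2, without a role or an order. The genome build, the annotation and the use of strand are not given in the sources used here. The design had assumed whole counts, so the values were rounded. In R 4.3.3 with edgeR 4.0.16, filterByExpr kept 11958 of 20381 genes, libraries were scaled by TMM, and PON1-OE was tested against NC with glmQLFit and glmQLFTest without covariates. The Benjamini-Hochberg method adjusted the p-values over all genes tested, with the thresholds of the study's methods (adjusted p under 0.05, fold over 1.5). CPM used TMM-scaled library sizes, and a floor of 3 counts was 0.167 to 0.191 CPM, which covers counting error only. Coordinates on GRCh38, exon lengths and GC content came from GENCODE v29, in which 20126 identifiers were found. Of the 50 genes, 10 share at least 50 exonic bases with another gene, 4 of them on the same strand (*BUB1B*, *CENPA*, *PRC1* and *NUSAP1*), so their counts are less certain.

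The members and lists were chosen with earlier results of these data known. Named genes were members with an unadjusted p under 0.05, the member with the largest absolute log2FC in each role, those with the highest and lowest RPKM, other mitotic genes with an adjusted p under 0.05 or the lowest p in their list, and *PON1*. Genes outside this rule are named for their role. Alternatives were a replicate block, RLE size factors, other filters (none, or 10 counts or more in all libraries), each library left out, DESeq2 1.42.0, limma-voom (limma 3.58.1), and spline offsets (5 degrees of freedom) for GC content and length. The fits were tested on simulated data.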

Additional observations from a re-analysis of the deposited data

How the results depend on the processing

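Of the 50 genes, 0 passed the adjusted p under every alternative except that of no filter on low counts (15542 genes tested), which gave 1 gene, *PLK1*, with a log2FC of 0.23 and an adjusted p of 0.0297. The 6 genes higher at an unadjusted p under 0.05 became 10 without the filter, 10 with the GC and length offset, and 3 to 13 when each library was left out. Without NC replicate 2 there were 3, without NC replicate 1 there were 10 and without PON1-OE replicate 2 there were 13. The 0 lower genes became 1 without the filter (*HMMR*) and 0 to 2 when each library was left out, with 1 (*HMMR*) without NC replicate 2 and 2 (*HMMR* and *TOP2A*) without PON1-OE replicate 1. The 1 lower gene among the other mitotic genes became 0 with the replicate block, 0 with DESeq2 and 0 to 4 when each library was left out, with 4 without PON1-OE replicate 1. *KIF14* had a log2FC of -0.0073 to 0.18 when each library was left out, and changed sign without PON1-OE replicate 1. The median level of 10.1 RPKM was 14.9 RPKM per longest transcript. The cause was not tested for any of these. DESeq2 gave no adjusted p for *PON1* and for 18 of the 50 genes.

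Same-numbered libraries did not deviate together (correlations 0.017, -0.023 and 0.020), so the numbers were not taken as pairs. With the replicate block, 7 of the 50 genes were higher at an unadjusted p under 0.05, and 40 of all genes passed the adjusted p in place of 81. With 3 libraries per group, the median 95% interval of the 50 genes was 0.15 to either side on the log2 scale, which describes the precision at this depth and spread and is no detection limit.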
